A study of Mus musculus with 8 samples.

Results

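The enzymes that make prostaglandins, thromboxane and leukotrienes were followed as a set of 10 genes among the 44674 genes quantified in brown adipose tissue (BAT) of 4 control mice and 4 Ox1RΔSERT mice. The genes were listed by name, as the cyclooxygenases *Ptgs1* and *Ptgs2*, the terminal synthases *Ptges*, *Ptgds*, *Hpgds*, *Ptgis* and *Tbxas1*, and the leukotriene genes *Alox5*, *Alox5ap* and *Ltc4s*. The set was chosen by the expression values of these 8 mice, with the fold changes between the groups already known. The differences between the groups are therefore given as a description of these mice and are not independent evidence for any direction.

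Ox1R is the orexin receptor type 1, and SERT is the serotonin transporter. Control mice carried floxed *Hcrtr1* alleles (Ox1R fl/fl) without Cre, and Ox1RΔSERT mice carried the same floxed alleles with 1 Sert-Cre transgene (Sert-Cre tg/wt), so the floxed alleles were common to all 8 mice. All mice were males fed a high-fat diet (HFD) from week 4 to week 18 of age, and BAT was taken after insulin and glucose had been infused in a hyperinsulinemic-euglycemic clamp, which holds blood glucose steady. Sert-Cre acts in cells that express or once expressed SERT, and the study saw activity of a Cre reporter outside the raphe nuclei. The labels number the mice and say nothing of litters or batches, so the spread between mice is the only error available.

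Eicosanoids are short-lived lipid signals made from arachidonic acid, which phospholipases free from membranes. Cyclooxygenases turn it into prostaglandin H2, from which single terminal synthases make prostaglandin E2, prostaglandin D2, prostacyclin or thromboxane. In the other branch, 5-lipoxygenase and its activating protein make leukotriene A4, which leukotriene C4 synthase joins to glutathione. In adipose tissue the enzymes are shared out among macrophages, mast cells, endothelium, stromal cells and adipocytes.

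Reads were summarised in 2 ways. Normalized values are CPM, counts relative to the size of the library, after TMM scaling for its composition, which serves to compare mice for 1 gene. TPM values are per transcript length and serve to compare genes. Mice are always given in the order 10684, 11253, 11560 and 11563 for controls and 11243, 11601, 11613 and 11708 for Ox1RΔSERT mice.

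Libraries held 35852667 to 50063257 counts, and 3 counts, taken as the floor of detection, equal a normalized value of 0.0592 to 0.0951. Transcripts of the mitochondrial genome took 40.0% to 46.8% of the counts in 5 mice and 33.6% to 36.2% in Ox1RΔSERT mice 11601, 11613 and 11708. The targeted gene *Hcrtr1* had 0 to 5 counts in each mouse, with both groups in that range, so BAT RNA does not check the genotype. Brown adipocyte markers were abundant in every mouse, with *Ucp1* (uncoupling protein of thermogenesis) at a normalized value of 2513 or more. Skeletal muscle markers summed to 6.43, 1250, 3.93 and 2.10 in control mice and 34.7, 134, 8.13 and 1861 in Ox1RΔSERT mice.

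Across the set, Ox1RΔSERT mice 11601 and 11708 stood far above the other 6 mice for most genes. They were the pair of mice with the highest normalized values for 7 of the 9 genes that passed the filter on low counts, and also for *Ptgs2*, which did not pass it. The same pair was highest for 20.1% of all 14489 genes tested. The exceptions were *Ptgds* and *Ltc4s*. The median log2 fold change of the 9 genes was 1.22, with a range from 0.00 to 2.29, beside a median of 0.002 over all genes tested. Without the mice 11601 and 11708 the median of the 9 genes was 0.11.

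The quasi-likelihood test of edgeR, adjusted over all genes, called 0 of the 9 genes and 0% of all genes, with 0.316 as the lowest adjusted p of any gene. At an unadjusted p under 0.05, 5 of the 9 genes were higher in Ox1RΔSERT mice and 0 were lower, beside 10.2% of all genes higher and 4.96% lower. DESeq2 gave all 10 genes an adjusted p and called 4 of them, *Ptgs2*, *Ptges*, *Ptgis* and *Tbxas1*, all higher in Ox1RΔSERT mice, beside 1.54% of all genes called higher. DESeq2 called 0 of the 10 genes without mouse 11601, without mouse 11708, without control mouse 11560 and without control mouse 11563. Leaving out another single mouse could also raise the count above 4. The shares of all genes called with mice left out are not given here. Since the comparison was used to choose the genes, nothing is read from these counts and shares.

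**Figure D1:**
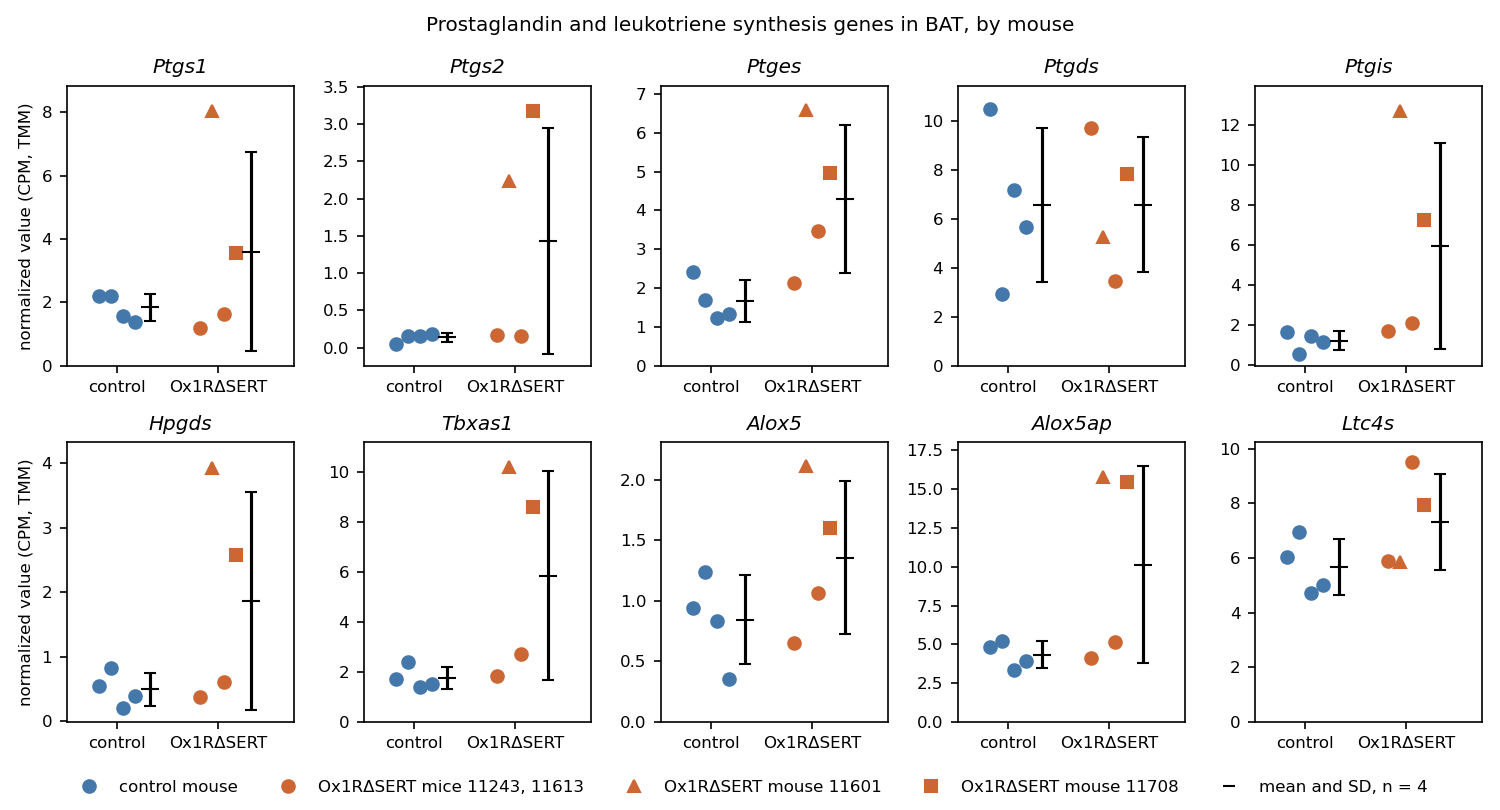
Normalized value (CPM after TMM scaling, linear axis) of each of the 10 genes in 4 control mice (blue) and 4 Ox1RΔSERT mice (orange), with the mean and SD of each group beside the points. Triangles (mouse 11601) and squares (mouse 11708) lie above all other points for 8 genes, and for *Ptgds* and *Ltc4s* they lie among them.

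The stretches upstream of the start are shown for 4 of the genes, because they include both cyclooxygenases and a pair of terminal synthases whose values stood high in the same mice. The sequences are those of RefSeq on GRCm38.p6, which lists 8 of the 10 genes, all but *Ptgis* and *Alox5ap*. Each run gives the 180 bases before the start on the gene's own strand, 5′ to 3′, and capitals mark matches to the motifs given after them. Their positions are chr2:36230246-36230425 (+) for *Ptgs1*, chr1:150099851-150100030 (+) for *Ptgs2*, chr2:30903298-30903477 (-) for *Ptges* and chr6:38918806-38918985 (+) for *Tbxas1*.
Ptgs1: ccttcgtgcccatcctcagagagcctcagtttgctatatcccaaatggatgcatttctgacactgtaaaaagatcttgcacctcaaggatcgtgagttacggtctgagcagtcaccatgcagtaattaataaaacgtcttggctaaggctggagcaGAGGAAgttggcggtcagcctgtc
Ptgs2: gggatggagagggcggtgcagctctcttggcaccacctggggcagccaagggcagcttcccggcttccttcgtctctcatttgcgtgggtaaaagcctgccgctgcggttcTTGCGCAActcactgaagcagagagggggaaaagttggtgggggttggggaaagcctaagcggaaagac
Ptges: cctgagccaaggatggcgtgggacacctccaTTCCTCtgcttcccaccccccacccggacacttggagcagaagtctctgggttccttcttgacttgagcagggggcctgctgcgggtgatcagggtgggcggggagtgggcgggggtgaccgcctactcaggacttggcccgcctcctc
Tbxas1: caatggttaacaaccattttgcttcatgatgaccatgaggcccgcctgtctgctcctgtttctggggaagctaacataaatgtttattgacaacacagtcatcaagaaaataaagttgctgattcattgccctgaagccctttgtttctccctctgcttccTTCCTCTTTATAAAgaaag
The stretches of *Ptgs1*, *Ptgs2* and *Ptges* hold no exon of their own gene, and 6 bases at the end of the *Tbxas1* stretch lie in an annotated exon of that gene. The RefSeq starts of *Ptges* and *Tbxas1* lie inside the GENCODE genes, downstream of the first GENCODE start. On the opposite strand, 113 bases of the *Ptgs2* stretch lie in an exon of *Ptgs2os*, and 70 bases of the *Tbxas1* stretch lie in an exon of *Gm42962*.

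The letters were searched on both strands in the 300 bases around each start, 250 before it and 50 after it, in 32851 promoters. GAGGAA, a core bound by PU.1, the myeloid ETS factor, occurred in 7 of the 8 genes and in 28.3% of all promoters. In the printed stretches it stands at position -24 of *Ptgs1*, and as TTCCTC on the opposite strand at -149 of *Ptges* and -19 of *Tbxas1*, where -1 is the base before the start. The match of *Ptgs2*, at -247, lies outside its printed stretch. TTGCNNAA, a form bound by C/EBP factors, occurred in 2 of the 8 genes and in 10.8% of all promoters. It stands as TTGCGCAA at -69 of *Ptgs2*, where it reads the same on both strands, and as TTATGCAA on the opposite strand at -176 of *Hpgds*. In GENCODE, 178 of the 180 bases before the *Hpgds* start lie in its own exons. They include this match and the GAGGAA match of *Hpgds* at -49. For *Ptgds* and *Ltc4s*, 93 and 84 of these bases lie in their own exons.

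TATAAA, the TATA box, occurred in *Tbxas1* alone of the 8 genes and in 13.6% of all promoters. In *Tbxas1* a match at -11 overlaps one on the opposite strand at -13. CACGTG, an E-box, was found in 1 of the 8 genes, *Ptgs2* at position 17, and in 7.15% of all promoters. TGACGTCA, the cAMP response element, was in 0 of the 8 genes and in 1.79% of all promoters, which says only that these letters are not in these windows. A match is a stretch of letters and does not show that a factor binds there.

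*Ptgs1* (ENSMUSG00000047250, chr2:36230426-36252272, + strand) encodes cyclooxygenase-1, the form that most tissues make constantly. Its normalized values were 2.20, 2.19, 1.58 and 1.39 in control mice and 1.18, 8.03, 1.64 and 3.56 in Ox1RΔSERT mice. The highest value was that of mouse 11601, mouse 11708 came second, and the lowest of all was also an Ox1RΔSERT mouse, 11243. The means were 1.84 ± 0.417 in controls and 3.60 ± 3.13 in Ox1RΔSERT mice (SD, n = 4 each), and the log2 fold change was 0.97 (SE 0.56). Without mice 11601 and 11708 it was -0.37 (SE 0.29), so the direction rested on these mice.

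*Ptgs2* (ENSMUSG00000032487, chr1:150100031-150108227, + strand) encodes cyclooxygenase-2, the form induced by inflammatory signals. It was barely detected in 6 mice, with 2, 5, 7 and 9 counts in controls and 8 and 7 counts in Ox1RΔSERT mice 11243 and 11613. Mice 11601 and 11708 had 113 and 154 counts. The normalized values were 0.0523, 0.159, 0.158 and 0.189 in controls and 0.175, 2.23, 0.157 and 3.17 in Ox1RΔSERT mice. The 6 low mice lay within a narrow band whatever their group, and the value of control mouse 10684 was below the level of 3 counts. The group means were 0.14 ± 0.0599 and 1.43 ± 1.51, and a fit without the count filter gave a log2 fold change of 3.28 (SE 0.95), the largest of the set. The mean of mice 11601 and 11708 was 19.3 times the control mean, and that of mice 11243 and 11613 was 1.19 times.

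The balance between the cyclooxygenases differed from mouse to mouse. Per transcript length, *Ptgs2* made up 1.62%, 3.96%, 4.81% and 8.16% of the summed cyclooxygenase TPM in control mice. In Ox1RΔSERT mice it made up 8.80%, 15.2%, 6.73% and 34.1%. *Ptgs1* thus remained the more abundant form in every mouse, and mouse 11613 lay inside the control range.

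*Ptges* (ENSMUSG00000050737, chr2:30889471-30929863, - strand) encodes microsomal prostaglandin E synthase-1, the inducible enzyme that acts after cyclooxygenase-2. Control mice had normalized values of 2.41, 1.68, 1.22 and 1.32, and Ox1RΔSERT mice had 2.14, 6.59, 3.48 and 4.96. Here 3 of the 4 Ox1RΔSERT mice lay above all controls, and only mouse 11243 was below control mouse 10684. The means were 1.66 ± 0.537 and 4.29 ± 1.92, and the log2 fold change was 1.37 (SE 0.37). Without mice 11601 and 11708 it was 0.77 (SE 0.34), the largest value of the set in that fit.

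*Ptgis* (ENSMUSG00000017969, chr2:167191805-167240604, - strand) encodes prostacyclin synthase, known from endothelium, smooth muscle and stromal cells. Its normalized values were 1.67, 0.571, 1.45 and 1.16 in controls and 1.72, 12.7, 2.09 and 7.28 in Ox1RΔSERT mice. It was the 1 gene of the set whose groups did not overlap, by a gap of 1.67 to 1.72 between mice 10684 and 11243. Of all genes tested, 2.69% had no overlap and were higher in Ox1RΔSERT mice. On the TPM scale the groups of *Ptgis* overlapped, at 0.683 in mouse 10684 and 0.673 in mouse 11243. The means were 1.21 ± 0.477 and 5.94 ± 5.16, the log2 fold change was 2.29 (SE 0.66), and it was 0.65 (SE 0.40) without mice 11601 and 11708.

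*Tbxas1* (ENSMUSG00000029925, chr6:38875404-39084585, + strand) encodes thromboxane A synthase, made by platelets and macrophages. Control mice had normalized values of 1.70, 2.41, 1.4 and 1.53, and Ox1RΔSERT mice had 1.83, 10.2, 2.72 and 8.60. Mice 11601, 11708 and 11613 lay above all controls, the last by a small margin, and mouse 11243 lay within them. The means were 1.76 ± 0.450 and 5.85 ± 4.19, and the log2 fold change was 1.73 (SE 0.54), or 0.38 (SE 0.29) without mice 11601 and 11708.

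The prostaglandin D synthases did not share a pattern. *Ptgds* (ENSMUSG00000015090, chr2:25466709-25470046, - strand) encodes the lipocalin-type enzyme, which is also a secreted carrier of small lipophilic molecules. Its normalized values were 10.5, 2.92, 7.18 and 5.67 in controls and 9.72, 5.27, 3.46 and 7.84 in Ox1RΔSERT mice. The groups covered nearly the same range, and the extremes were both control mice. The means were 6.56 ± 3.14 and 6.57 ± 2.76, with a log2 fold change of 0.00 (SE 0.41).

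*Hpgds* (ENSMUSG00000029919, chr6:65117293-65144908, - strand) encodes the hematopoietic enzyme, found in mast cells and some macrophages. Control mice had normalized values of 0.549, 0.824, 0.203 and 0.399, and Ox1RΔSERT mice had 0.371, 3.93, 0.606 and 2.57. Mice 11243 and 11613 lay inside the control range, and mice 11601 and 11708 lay above it. The means were 0.494 ± 0.262 and 1.87 ± 1.69, and the log2 fold change was 1.94 (SE 0.76), or 0.02 (SE 0.54) without these mice. Per length, *Hpgds* made up 1.27%, 5.82%, 1.27% and 1.5% of the summed TPM of both D synthases in controls and 0.807%, 20.3%, 7.72% and 9.70% in Ox1RΔSERT mice, so *Ptgds* was the more abundant in all 8.

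**Figure D2:**
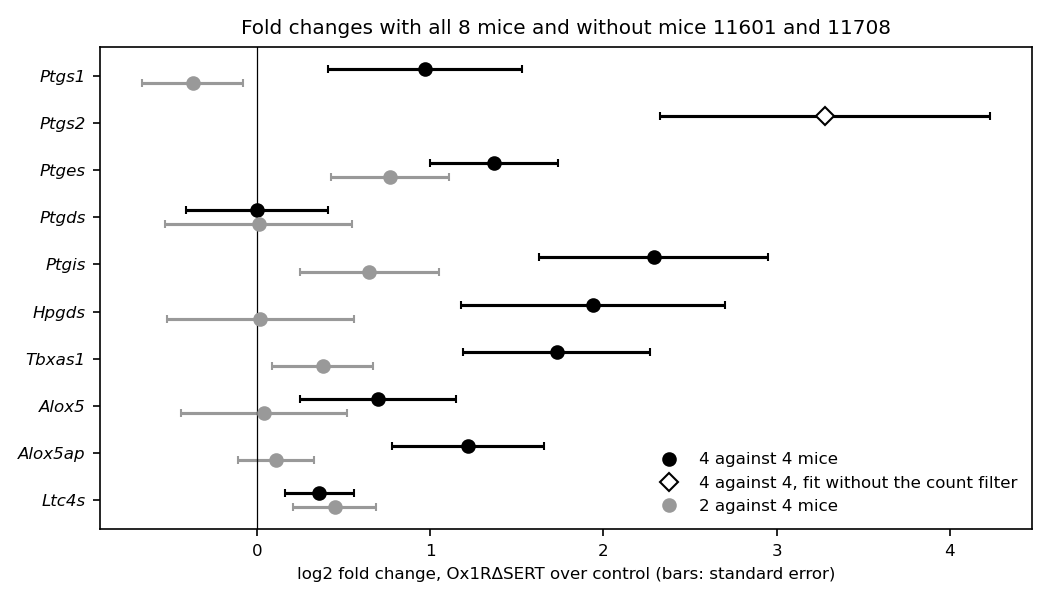
Log2 fold change of each gene, Ox1RΔSERT over control, with its standard error from edgeR, for all 8 mice (black) and without mice 11601 and 11708 (grey). *Ptgs2* has an open symbol because it comes from the fit without the count filter and was not tested in the others. *Ptgs1* lies at 0.97 in black and -0.37 in grey, and *Ltc4s* at 0.36 and 0.45.

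*Alox5* (ENSMUSG00000025701, chr6:116410077-116461178, - strand) encodes 5-lipoxygenase, a myeloid enzyme. Its normalized values were 0.942, 1.24, 0.835 and 0.357 in controls and 0.655, 2.11, 1.06 and 1.60 in Ox1RΔSERT mice. Mice 11601 and 11708 were highest, though by a smaller margin than for *Hpgds* or *Tbxas1*. The means were 0.843 ± 0.365 and 1.36 ± 0.636, and the log2 fold change was 0.70 (SE 0.45), or 0.04 (SE 0.48) without these mice.

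*Alox5ap* (ENSMUSG00000060063, chr5:149264767-149288153, + strand) encodes the 5-lipoxygenase-activating protein, which hands arachidonic acid to the enzyme. Control mice had normalized values of 4.84, 5.23, 3.36 and 3.93, and Ox1RΔSERT mice had 4.15, 15.8, 5.14 and 15.5. Mice 11601 and 11708 were close to each other, and mice 11243 and 11613 lay inside the control range. The means were 4.34 ± 0.849 and 10.1 ± 6.35, and the log2 fold change was 1.22 (SE 0.44), or 0.11 (SE 0.22) without mice 11601 and 11708.

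*Ltc4s* (ENSMUSG00000020377, chr11:50236461-50238616, - strand) encodes leukotriene C4 synthase, the first step to the cysteinyl leukotrienes. Its normalized values were 6.04, 6.94, 4.70 and 5.02 in controls and 5.90, 5.86, 9.50 and 7.94 in Ox1RΔSERT mice. The highest value was that of mouse 11613, and mouse 11601, the highest for 7 other genes, lay inside the control range. The means were 5.68 ± 1.02 and 7.30 ± 1.76, and the log2 fold change was 0.36 (SE 0.20), or 0.45 (SE 0.24) without mice 11601 and 11708. The values of *Ltc4s* were thus distributed over the mice in another way than those of its upstream partners *Alox5* and *Alox5ap*.

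Per transcript length, *Ltc4s* was the most abundant gene of the set in control mice. It had 12.9 ± 1.96 TPM (SD, n = 4), *Ptgds* 6.57 ± 3.09 and *Alox5ap* 5.29 ± 1.90. The range of *Ltc4s* lay above that of *Ptgds*, and those of *Ptgds* and *Alox5ap* overlapped. Next came *Ptgs1* with 0.625 ± 0.119 TPM, *Tbxas1* with 0.623 ± 0.107, *Ptgis* with 0.493 ± 0.193 and *Ptges* with 0.456 ± 0.221. Each of these neighbours overlapped the next, and *Ptges* overlapped *Alox5* at 0.222 ± 0.0900 TPM. *Alox5* in turn overlapped *Hpgds* at 0.120 ± 0.0314 TPM. Within single control mice, *Ptges* was above *Alox5* and *Alox5* above *Hpgds* in all 4, while *Ptgs1* was above *Tbxas1* in 1 of 4. *Ptgs2* was lowest, at 0.0283 ± 0.0122 TPM, below every control value of *Hpgds*.

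In Ox1RΔSERT mice *Alox5ap* reached 20.9 ± 17.3 TPM, beside 20.3 ± 5.52 TPM for *Ltc4s*. The summed TPM of the 10 genes was 34.3, 25.7, 27.0 and 22.3 in controls and 27.7, 87.8, 42.9 and 83.3 in Ox1RΔSERT mice. The scale itself moved, since the median log2 fold change over all genes was 0.23 on log2(TPM + 1) and 0.319 on log2(TPM + 0.1), against 0.002 on counts.

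**Figure D3:**
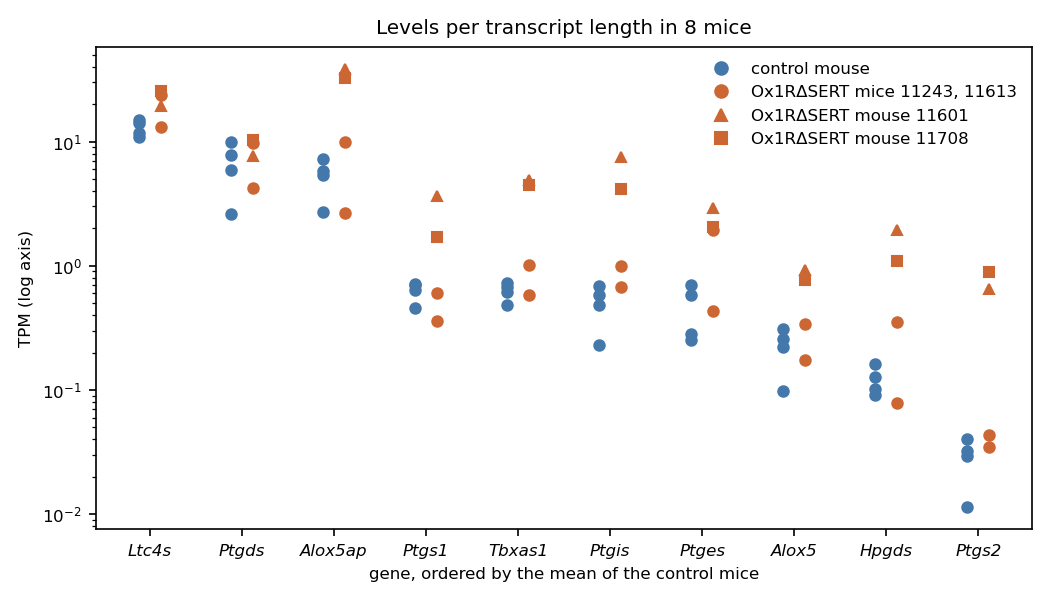
TPM of the 10 genes in each of the 8 mice on a log axis, with genes ordered by the mean of the control mice. *Ltc4s* is highest and *Ptgs2* lowest in controls, and mice 11601 (triangles) and 11708 (squares) are the highest points for *Alox5ap* and for every gene from *Ptgs1* to the right.

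For some genes the TPM values and the counts gave different pictures of single mice. Control mice 10684 and 11563 had 185 and 187 counts of *Alox5ap*, but 7.27 and 2.72 TPM. The number of counts per TPM, corrected for the library and set to a mean of 1 over the mice, was 0.780, 1.00, 0.659 and 1.69 in controls and 1.69, 0.672, 0.749 and 0.757 in Ox1RΔSERT mice. Control mouse 11563 and Ox1RΔSERT mouse 11243 thus had the highest ratio in their groups, which by construction follows the length of the transcripts to which reads were assigned. *Alox5ap* has annotated transcripts of 1251, 504, 452 and 356 bases. The same ratio ran from 0.573 to 1.29 for *Hpgds* and from 0.616 to 1.31 for *Ptges*, and only from 0.939 to 1.15 for *Ltc4s*. Differences in *Alox5ap*, *Hpgds* and *Ptges* on the TPM scale therefore hold a part that counts do not show.

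Exons of 5 of the genes overlap those of a gene on the opposite strand. The shared stretch was 148 bases for *Ptgs1*, 156 for *Ptgis*, 144 for *Tbxas1*, 189 for *Alox5ap* and 268 for *Ltc4s*. The libraries were stranded, but whether strand was used in the counting is not stated in the sources used here, so the values of these genes may hold reads from the partner.

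For each gene that passed the filter, the most similar profiles over the 8 mice were sought among 12269 other genes, as the smallest root mean square difference of log2 values centred on their mean. This difference is not scaled to the spread of a gene, so a gene that varies little can have small differences. The closest matches of all were *Syk* (0.08) and *Laptm5* (0.09) for *Tbxas1*, and *Tnfrsf1b* and *Lcp2* (both 0.10) for *Alox5ap*. *Ltc4s* was nearly as close to *Triobp* and *Pitpnm1* (both 0.11). For *Ptgs1* the nearest were *Pcdh7* (0.17) and *Cmah* (0.18), and for *Hpgds* they were *Cdk1* and *Adgre1* (both 0.20). *Adgre1* is a macrophage marker.

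The other genes had looser matches. *Ptges* was nearest to *Gldc* (0.21) and *Npl* (0.22), and *Alox5* to *Gmfg* (0.22) and *Mcm5* (0.24). *Ptgds* was nearest to *Pclo* (0.25). *Ptgis* had the loosest matches, *Pdpn* and *Aldh1a3* (both 0.36).

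Markers of the cells that make eicosanoids were listed with the genes. In bulk tissue a larger number of cells of a type and more RNA per cell cannot be told apart. The 8 macrophage markers summed to a normalized value of 65.3 to 130 in controls, 104 in mouse 11243, 128 in mouse 11613, 410 in mouse 11601 and 380 in mouse 11708. Mice 11601 and 11708 were highest for all 8, and 7 of the 8 had an unadjusted p under 0.05 in edgeR, all higher in Ox1RΔSERT mice, beside 10.2% of all genes, with a median log2 fold change of 1.67. DESeq2 called 4 of them, all higher, beside 1.54% of all genes.

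Fibroblast markers moved with the same mice, with sums of 400 to 1058 in controls, 704 in mouse 11243, 1020 in mouse 11613, 5577 in mouse 11601 and 2613 in mouse 11708. All 6 had their highest values in mice 11601 and 11708, and the median log2 fold change was 1.26. The part of either cell type in the values of the eicosanoid genes was not tested.

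Platelet markers summed to 8.45 to 10.7 in controls and 7.47, 35.7, 10.9 and 27.7 in Ox1RΔSERT mice. *Pf4*, with 30.7 in mouse 11601 and 23.3 in mouse 11708, carried most of that sum, while *Gp1ba*, *Gp9* and *Gp6*, the platelet glycoproteins, were at a normalized value of 0.131 or less in every mouse. The 8 mast cell markers summed to 16.9 to 35.2 in controls and 19.5 to 42.5 in Ox1RΔSERT mice. The control maximum was that of mouse 10684, in which *Kit* alone had 14.3, against 1.24 to 2.75 in the other controls. Of the 7 that were tested, 6 had positive log2 fold changes and 1 negative, with a median of 0.38. The groups did not overlap for *Fcer1a*, higher in Ox1RΔSERT mice, beside 2.69% of all genes. Neutrophil markers summed to 5.61 to 27.6 in controls and 14.5, 23.0, 28.2 and 48.3 in Ox1RΔSERT mice. All 5 that were tested had positive log2 fold changes, with a median of 0.88, beside a median of 0.002 over all genes tested. *Ly6g*, at 0.105 or less in every mouse, was not tested.

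Endothelial markers summed to 283 to 386 in controls and 356, 263, 321 and 346 in Ox1RΔSERT mice, so mice 11601 and 11708 did not stand above the controls. Smooth muscle markers summed to 19.1 to 25 in controls and 22.0, 26.6, 19.8 and 36.6 in Ox1RΔSERT mice, and the median log2 fold change of the 4 genes was 0.03. Brown adipocyte markers summed to 6903 to 8055 in controls, 6885 in mouse 11243, 6472 in mouse 11613, 4682 in mouse 11601 and 4599 in mouse 11708. Mesothelial markers summed to 0.888 or less and lymphocyte markers to 0.820 or less in every mouse.

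**Figure D4:**
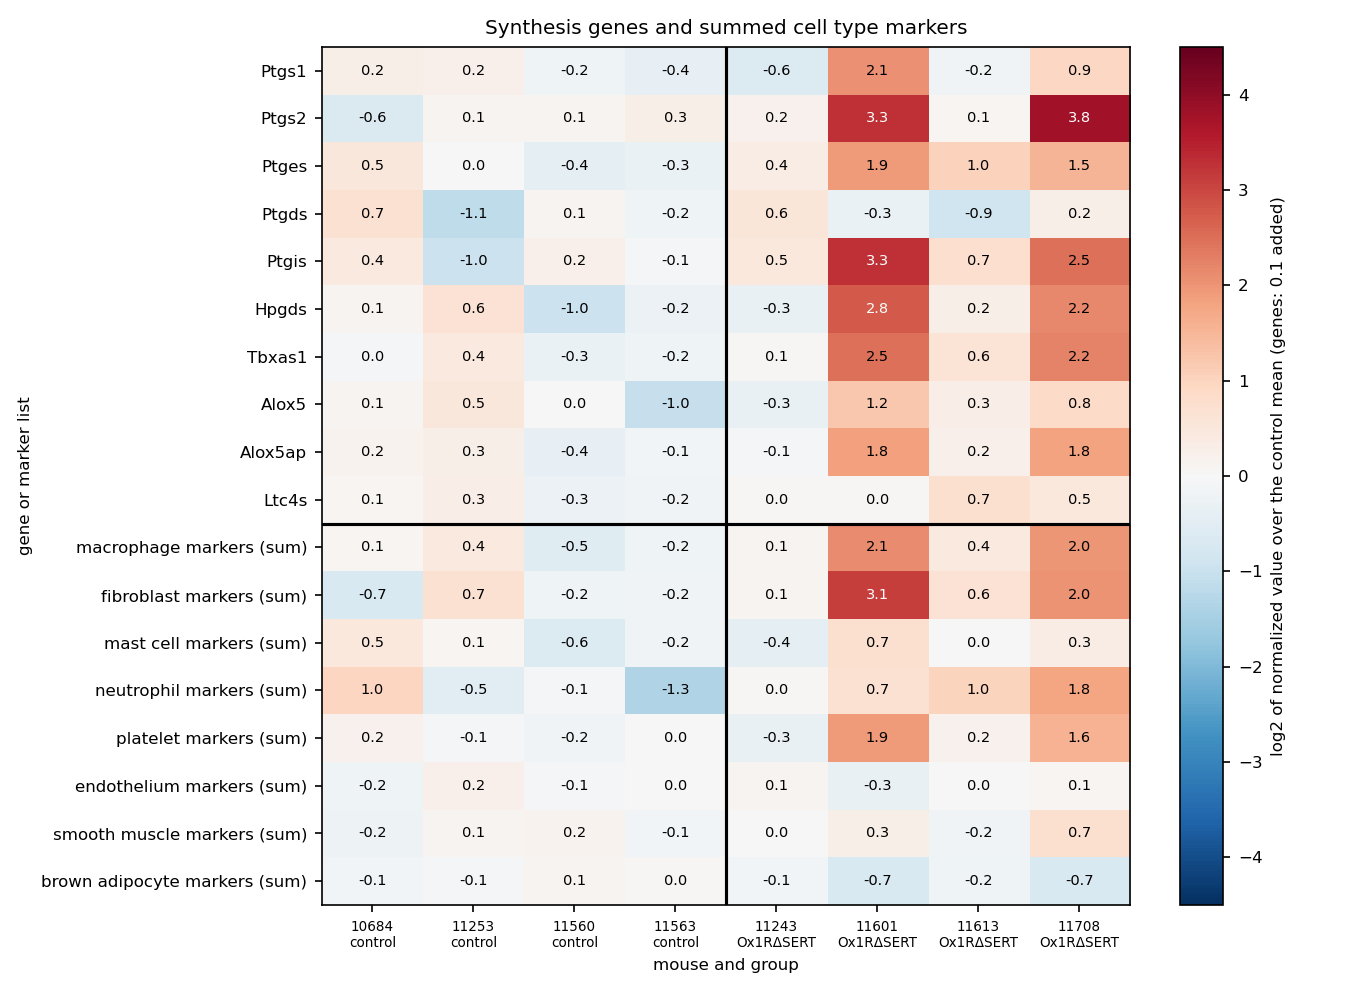
Log2 of the normalized value over the mean of the 4 control mice for the 10 genes (above the line, with 0.1 added to each value) and for summed markers of 8 cell types (below the line), with 1 column per mouse. Mice 11601 and 11708 are red for 8 of the genes and for the macrophage, fibroblast and platelet sums, and pale blue for the brown adipocyte sum. Their neutrophil (0.70 and 1.77), mast cell (0.73 and 0.32) and smooth muscle sums (0.26 and 0.72) are also above 0. Their endothelial sums are -0.32 and 0.08.

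A list of 53 other genes of the pathway was read against the set. Of these, 35 passed the filter and 4 had 0 counts in every mouse, namely *Pla2g10*, *Alox12b*, *Alox12e* and *Oxgr1*. edgeR called 0 of the 35, and at an unadjusted p under 0.05, 8 were higher and 2 lower in Ox1RΔSERT mice, beside 10.2% and 4.96% of all genes. DESeq2 called 2, *Dpep2* and *Slco2a1*, both higher, among the 39 with an adjusted p, beside 1.54% of all genes called higher. The median log2 fold change was 0.08. On normalized values the groups did not overlap for *Ptger4*, higher in Ox1RΔSERT mice, and *Pla2g12a*, lower, beside 2.69% and 2.81% of all genes. Mice 11601 and 11708 were the pair with the highest values for 14 of the 35, beside 20.1% of all genes.

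Among 10 tested genes that release arachidonic acid and related lipids, 3 had positive and 7 negative log2 fold changes, with a median of -0.26. *Pla2g4a*, the cytosolic phospholipase that frees arachidonic acid for the eicosanoid enzymes, had normalized values of 0.811, 0.888, 0.610 and 0.820 in controls and 0.699, 3.81, 0.741 and 2.74 in Ox1RΔSERT mice. The pattern was again 6 similar mice and 2 high ones, with a log2 fold change of 1.35 (SE 0.55, edgeR adjusted p 0.320) that turned to -0.11 without mice 11601 and 11708. *Daglb*, a diacylglycerol lipase, had a log2 fold change of 0.64 (SE 0.30, edgeR adjusted p 0.345), which turned to -0.03 without them.

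The secreted phospholipases among the tested genes had negative log2 fold changes. *Pla2g12a* had normalized values of 42.9, 48.9, 45.2 and 44.5 in controls and 38.3, 28.8, 40.9 and 26.8 in Ox1RΔSERT mice. On this scale every Ox1RΔSERT mouse was below every control. On the TPM scale the groups overlapped, since mouse 11613 had 32.8 and the highest control mouse, 11563, had 29.8. Its log2 fold change was -0.43 (SE 0.14), with an edgeR adjusted p of 0.316, and it was -0.19 without mice 11601 and 11708. *Pla2g2e* and *Pla2g2d* had log2 fold changes of -0.72 (SE 0.30) and -0.46 (SE 0.30), with adjusted p of 0.324 and 0.465 in edgeR.

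Of 9 other synthases tested, *Dpep2*, a dipeptidase that converts leukotriene D4 to E4, had the largest difference. Control mice had normalized values of 1.20, 1.93, 0.542 and 1.26, and Ox1RΔSERT mice had 2.12, 9.25, 1.59 and 8.31. The highest were again mice 11601 and 11708, while mouse 11613 lay among the controls. The log2 fold change was 2.11 (SE 0.64), with an adjusted p of 0.316 in edgeR and 0.0322 in DESeq2, and it was 0.60 (SE 0.44) without these mice. *Ggt5*, the transferase of the step before, had a log2 fold change of 0.42 (SE 0.23, edgeR adjusted p 0.398), or 0.20 without them. *Ptges3*, the cytosolic prostaglandin E synthase, and *Cbr1*, a carbonyl reductase, both had -0.24 (SE 0.20 and 0.18, edgeR adjusted p 0.562 and 0.527). Both turned positive on the TPM scale, where they stayed below the median over all genes.

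Of the 6 other lipoxygenases, only *Aloxe3* passed the filter, with a log2 fold change of -0.31 (SE 0.71, edgeR adjusted p 0.855) whose sign changed in other fits. *Alox12*, of platelets, and *Alox15*, of leukocytes, had mean normalized values of 0.348 and 0.00654 in controls and 0.255 and 0.0265 in Ox1RΔSERT mice.

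All 8 genes of inactivation and transport were tested, with a median log2 fold change of 0.45. *Slco2a1*, the transporter that takes prostaglandins into cells, had normalized values of 2.14, 2.38, 2.01 and 2.52 in controls and 3.49, 16.7, 2.11 and 13.8 in Ox1RΔSERT mice. Mouse 11613 lay inside the control range and the other 3 above it. The log2 fold change was 2.0 (SE 0.61), with an adjusted p of 0.316 in edgeR and 0.0322 in DESeq2, and it was 0.31 (SE 0.25) without mice 11601 and 11708.

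*Cyp4f18*, which hydroxylates leukotriene B4, had normalized values of 0.288, 1.01, 0.361 and 0.273 in controls and 0.437, 2.45, 0.831 and 2.0 in Ox1RΔSERT mice. The highest were mice 11601 and 11708, and the other Ox1RΔSERT mice lay inside the control range. The log2 fold change was 1.58 (SE 0.63, edgeR adjusted p 0.317), or 0.43 (SE 0.60) without mice 11601 and 11708.

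At the other end of this group, *Ephx2*, the soluble epoxide hydrolase, had a log2 fold change of -0.28 (SE 0.16) and *Ptgr2*, a prostaglandin reductase, -0.25 (SE 0.12), with edgeR adjusted p of 0.413 and 0.365. Both turned positive on the TPM scale, where they stayed below the median over all genes. Without mice 11601 and 11708 they were -0.03 and -0.08. The lowest values of both genes were those of mice 11601 and 11708, at 353 and 360 for *Ephx2* and 189 and 197 for *Ptgr2*.

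Of 16 receptors, 7 passed the filter. All 7 had positive log2 fold changes, with a median of 0.66, beside a median of 0.002 over all genes tested. *Ptger1* and *Ptger3* changed sign when single mice were left out. *Fpr2* had 17, 5, 5 and 7 counts in controls and 14, 41, 21 and 56 in Ox1RΔSERT mice. It passed the filter only through the latter. Since the filter decided which of the 16 were tested, nothing is read from the count of 7. The pair 11601 and 11708 was highest for 5 of the 7. Without them *Ptgir*, the prostacyclin receptor, turned from 0.42 to -0.28 (SE 0.24), and *Ptger2*, the EP2 receptor for prostaglandin E2, went from 0.92 to 0.20 (SE 0.48).

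*Ptger4*, the EP4 receptor for prostaglandin E2, had 1.96, 3.74, 3.25 and 1.60 in controls and 3.82, 4.26, 4.20 and 4.38 in Ox1RΔSERT mice. All 4 Ox1RΔSERT mice lay above all controls, the lowest of them close to control mouse 11253. Its log2 fold change was 0.66 (SE 0.27), with an edgeR adjusted p of 0.321, and it was 0.61 (SE 0.34) without mice 11601 and 11708.

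*Fpr2*, a formyl peptide receptor that also binds lipoxin, had normalized values of 0.445, 0.159, 0.113 and 0.147 in controls and 0.306, 0.809, 0.471 and 1.15 in Ox1RΔSERT mice. All Ox1RΔSERT mice but 11243 lay above all controls. The log2 fold change was 1.67 (SE 0.55, edgeR adjusted p 0.316), or 0.86 (SE 0.60) without mice 11601 and 11708. *Cysltr1*, a receptor for cysteinyl leukotrienes, had 0.758, 1.08, 0.294 and 0.441 in controls and 0.546, 1.74, 0.763 and 1.81 in Ox1RΔSERT mice. Again mice 11601 and 11708 were highest and the others lay inside the control range, and the log2 fold change of 0.93 (SE 0.51, edgeR adjusted p 0.392) went to 0.06 (SE 0.52) without these mice.

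*Ptger3*, the EP3 receptor for prostaglandin E2, had normalized values of 24.7, 13.9, 20.6 and 18.1 in controls and 26.2, 16.5, 18.5 and 21.1 in Ox1RΔSERT mice. Its groups covered much the same range. The receptors for prostaglandin D2, *Ptgdr* and *Ptgdr2*, had a mean of 0 in controls and 0.0108 and 0.00561 in Ox1RΔSERT mice, below the level of 3 counts.

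**Figure D5:**
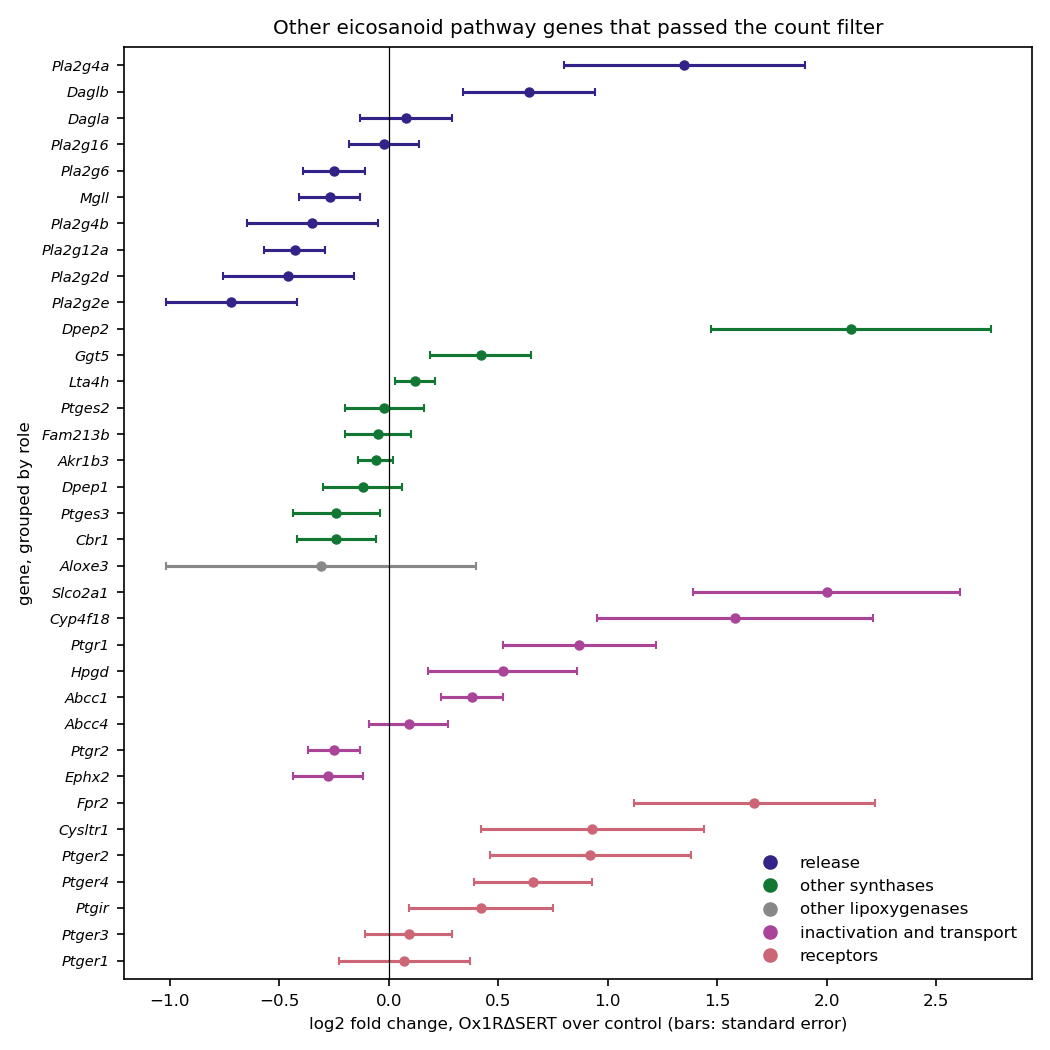
Log2 fold change (Ox1RΔSERT over control, bars are standard errors from edgeR) of the 35 other pathway genes that passed the filter, coloured by role and ordered by size within a role. *Dpep2* (2.11) and *Slco2a1* (2.0) are farthest to the right, *Pla2g2e* (-0.72) is farthest to the left, and all 7 receptors lie at or right of 0.07.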

How the data were processed

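Poly-A selected, stranded libraries of BAT from 4 control and 4 Ox1RΔSERT mice were analysed. Per the labels and the paper's methods, the authors quantified genes with Salmon 0.14.1 on GRCm38 (the submitters' notes also name STAR) and deposited estimated counts, not normalized, and TPM values, which account for transcript length and depth. The annotation release is not given in the sources used here. Symbols and positions came from GENCODE M21 on GRCm38, upstream sequences and motif shares from RefSeq (GRCm38.p6).

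Estimated counts were rounded and compared with edgeR 4.0.16 (filterByExpr, TMM, glmQLFit and glmQLFTest, two-sided, Benjamini-Hochberg over 14489 genes, threshold 0.05) in R 4.3.3. Standard errors come from the F statistic. Alternatives were DESeq2 1.42.0 at its defaults on all genes of the table, RLE and upper-quartile factors, no filter or at least 10 counts in every mouse, limma 3.58.1 (voom on counts, trend on log2 TPM with a pseudocount of 1 or 0.1), each mouse left out, and both mice 11601 and 11708 left out. The fits were tested on simulated data.

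The 10 genes, the other lists, the motifs and the mice left out together were chosen with earlier results of these data known. Named genes were the 10, the 2 highest and 2 lowest log2 fold changes of each role among other pathway genes, those without overlap, and the 2 nearest profiles, of which 1 is not reported here. *Alox12*, *Alox15*, *Ptgdr*, *Ptgdr2*, *Ptgir*, *Ptger2*, *Hpgd*, *Pla2g16*, *Ptges2*, *Akr1b3* and *Fam213b* were named after their values were seen.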

Additional observations from a re-analysis of the deposited data

Results flagged for a closer look

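Control groups of 2 other pathway genes had 1 mouse far from the rest. For *Cyp4f18*, control mouse 11253 had a normalized value of 1.01, and its gap to the next mouse was 0.881 of the range of the group, above Dixon's critical value for 4 mice. For *Fpr2*, control mouse 10684 had 0.445, and the gap was 0.862 of the range. These were 2 of 58 groups examined, and chance alone takes a share of about 0.05 of groups past this value. None of the 10 synthesis genes was among the 2.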

How the results depend on the processing

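edgeR and limma called 0 genes in every fit. DESeq2 called 265 genes, 32 of them lower, and 2 other pathway genes. DESeq2 settings added after the data had been seen gave 266 genes (without genes at 0 counts) and 275 (filtering tuned to the threshold), with 4 of the 10 synthesis genes in both. Leaving out 1 mouse moved that count of 4 to between 0 and 6. The count of genes without overlap was 0 on TPM and 1 to 3 with 1 mouse left out. With mice left out or on TPM, the shares of all genes are not given here, so nothing is read from such counts. Without mice 11601 and 11708 the median of the synthesis genes was 0.11, DESeq2 called 0 of them, and the signs of *Ptgs1* (-0.37), *Pla2g4a* (-0.11), *Daglb* (-0.03), *Cbr1* (0.05), *Ptgir* (-0.28), *Hpgd* (-0.01), *Pla2g16* (0.18), *Ptges2* (0.24), *Akr1b3* (0.04) and *Fam213b* (0.02) turned. On log2(TPM + 1) and log2(TPM + 0.1), *Ptges3* turned to 0.13 and 0.14, *Cbr1* to 0.06, *Ptgr2* to 0.10 and *Ephx2* to 0.04 (both scales for the last 3). These values lie below the medians over all genes on these scales, 0.23 and 0.319. *Pla2g16*, *Ptges2*, *Akr1b3*, *Fam213b* and pathway genes not listed here also turned positive on both scales. *Ptgis* and *Hpgds* were at 1.23 and 0.63 on log2(TPM + 1). *Aloxe3* turned to 0.27 with limma voom. The cause of these changes was not tested. With 1 mouse left out, *Aloxe3* ranged from -0.65 to 0.58, *Ptger1* from -0.10 to 0.24 and *Ptger3* from -0.07 to 0.23. No paired analysis was possible because the labels give mouse numbers and no numbers shared between the groups. Depth limits *Ptgs2* most, which rests on 2 to 9 counts in 6 mice.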
